A study of Mus musculus with 8 samples.

Results

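The 34 genes described here are those of the fibroblast growth factor (FGF) pathway that make its signal, receive it or answer to it, taken by gene symbol from a list and not by any measured value. They comprised 18 secreted ligands, 4 intracellular homologous factors (Fgf11, Fgf12, Fgf13 and Fgf14), 4 receptors (Fgfr1 to Fgfr4) and 8 feedback and target genes (Spry1, Spry2, Spry4, Spred1, Spred2, Dusp6, Etv4 and Etv5), of 36317 gene names in the table. All 34 were found. The values were RPKM, reads scaled to transcript length and to the mapped reads of the library, from bulk RNA sequencing of dissected mouse embryonic tissue.

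Of 8 libraries, 2 came from wt forebrain at E13.5, 2 from wt spinal cord at E13.5, 2 from wt forebrain at E15.5 and 2 from EED-cKO forebrain at E15.5. Eed encodes part of the core of PRC2, the Polycomb complex that methylates histone H3 and keeps genes silent. In the EED-cKO embryos Eed was deleted under Sox1 Cre, per the series title, and Sox1 is a gene of early neural tissue, so cells of other origin in the dissected tissue would not be covered by the deletion. The labels call the controls wt and say neither whether they carried Cre or an unrecombined allele, nor whether the libraries of a group came from separate embryos or pools, so the p-values measure the spread between these libraries only.

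FGF ligands bind receptor tyrosine kinases on the cell surface together with heparan sulphate, and the receptors pass the signal through Ras and the MAP kinases ERK1 and ERK2. Active ERK switches on ETS factors such as Etv4 and Etv5 and also the inhibitors that damp the same relay, the Sprouty and Spred proteins and the ERK phosphatase Dusp6, so that the level of these genes is widely used as a readout of FGF signalling. In the embryonic brain, ligands of the Fgf8 group released at the front of the forebrain pattern the cortex, and FGF receptors on ventricular zone cells sustain the progenitor pool.

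Depth is unknown, because read counts are not part of the table, and counting intervals are therefore not given. RPKM summed over all genes to between 378294 and 397320 in the E13.5 libraries and to between 761647 and 843296 in the E15.5 libraries, and levels are therefore compared within an age only. The names of 22 of the 34 members belonged to another row of the E15.5 columns until the row order of these columns was restored, and the values below are those after restoration. Eed itself was at 10 and 10.6 RPKM in EED-cKO forebrain and at 25.8 and 27.9 in wt E15.5 forebrain, so the check of the targeted gene went with the labels (log2 change -1.30 ± 0.085 SE, limma adjusted p = 8.7e-05). The 6 forebrain markers, among them Emx1, Emx2, Lhx2, Tbr1 and Eomes, summed to 469.6 RPKM or more in all 4 wt forebrain libraries and to 6.3 or less in spinal cord, where 6 Hox genes of the trunk summed to 956.1 and 1148.

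Across the 8 libraries, expression of the ligands was dominated by a few genes, whereas every receptor and every feedback gene was detected in all libraries. Fgf15, the mouse counterpart of human FGF19 and a ligand of embryonic brain progenitors, made up between 28.2% and 67% of the summed RPKM of the 18 ligands. Fgf4 and Fgf21 were listed at 0 in all 8 libraries. Of the homologous factors Fgf13 had the highest RPKM in every library, and of the receptors Fgfr1 or, at E13.5 in 1 forebrain library, Fgfr3 had the highest. The heatmap of all members gives each value.

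**Figure D1:**
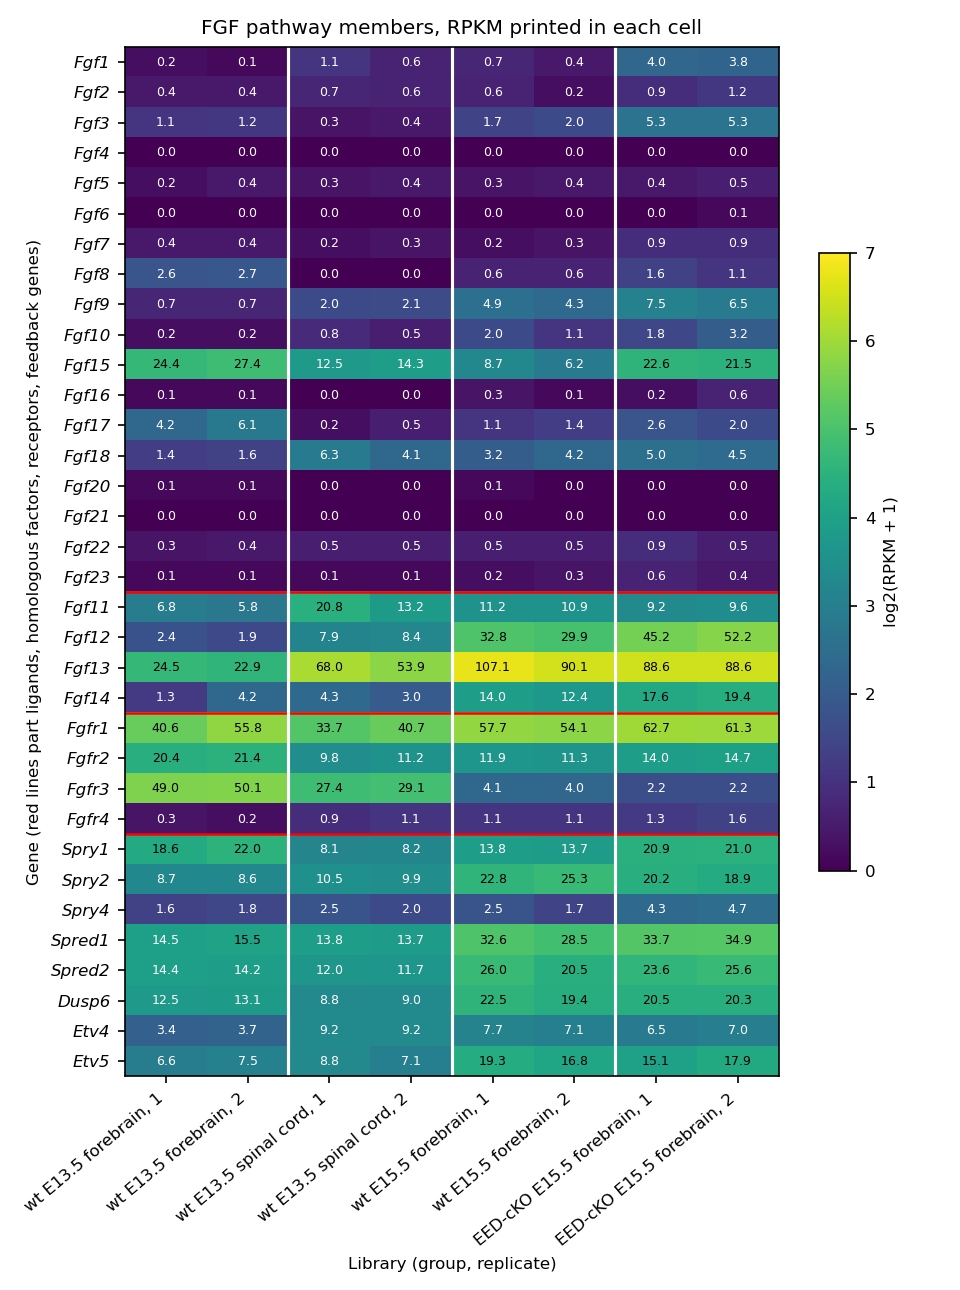
Heatmap of the 34 members (rows, parted by red lines into ligands, homologous factors, receptors and feedback genes) in the 8 libraries (columns), with RPKM printed in each cell and log2(RPKM + 1) as colour. Fgf15 is the brightest ligand in every column and Fgf4 and Fgf21 are at 0.0 throughout.

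Of the 34 members, 24 reached 1 RPKM in at least 2 of the 8 libraries and were tested, and the 10 that did not were all ligands. Fgf1 passed this filter only through the EED-cKO libraries. The test was limma on log2(RPKM + 1), fitted on all 17022 genes that passed, and calls were made where p, adjusted over those genes by the Benjamini-Hochberg method, was under 0.05. Changes on this scale understate the fold change of genes with low values.

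EED-cKO and wt forebrain at E15.5 were set against each other to ask how the pathway differs when EED is removed from neural cells. Of the 18 ligands 6 were called higher in EED-cKO forebrain, 2 did not pass the test and 10 were not tested, and 5 of the 8 feedback and target genes did not pass. Of the 24 tested members, 10 were higher and 2 were lower. Among all tested genes 30.2% were called higher, 16.7% lower and 46.9% in either direction, so the share of members called, 50%, was near that background. Of all calls 64.5% were higher, against 48.8% after median ratio scaling and 45.1% after quantile normalization, which moved the median change of all genes to -0.05. The median log2 change was 0.29 over the tested members and 0.08 over all tested genes. Without overlap between the groups, 15 tested members were higher in EED-cKO and 5 lower. Of all 17022 tested genes, 7257 were higher and 4703 lower without overlap, so lack of overlap was common. After quantile normalization 6 members were higher and 3 lower. Fgf1 is among these calls although it entered the test only through the EED-cKO libraries, where it was high. Without it, a count added after seeing the data, 9 of 23 members were higher and 2 lower (47.8% called, median 0.28), and 5 of 7 tested ligands were higher. By role, with Fgf1, 6 of 8 tested ligands, 1 of 4 homologous factors, 1 of 4 receptors and 2 of 8 feedback genes were higher, and 1 receptor and 1 feedback gene were lower.

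Fgf1, a ligand without a classical secretion signal that binds all FGF receptors, was the member that passed the filter only through EED-cKO, so its change is given as a description with no test. It was at 4.0 and 3.8 RPKM in EED-cKO and at 0.7 and 0.4 in wt forebrain, a ratio of means of 7.09 and a log2 change of 1.67. The groups did not overlap, and the change was between 1.53 and 1.81 with each library left out. Reads were unstranded and Fgf1 overlaps Arhgap26 on the other strand in the annotation, so their reads cannot be told apart where they overlap. In all, 15 members have an annotated span, introns included, that overlaps a gene on the other strand. Whether exons overlap was not examined. Beside Fgf1 they are Fgf2, Fgf7, Fgf9, Fgf10, Fgf13, Fgf14, Fgf15, Fgf20, Fgf22, Fgfr1, Fgfr2, Fgfr3, Spry1 and Spry4. The Fgfr2 span is 2961 kb long in this annotation. The spans of Fgf2, Fgf12, Fgf13, Fgf14, Fgf20 and Fgfr2 also overlap genes on the same strand.

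Fgf15 showed the largest difference in RPKM among the ligands. It was at 22.6 and 21.5 RPKM in EED-cKO, 22.1 ± 0.778 (SD, n = 2), and at 8.7 and 6.2 in wt, 7.45 ± 1.77 (log2 1.46 ± 0.145 SE, limma adjusted p = 3.7e-04). Both EED-cKO libraries lay above both wt libraries, with a ratio of means of 2.96. Its share of the summed ligand RPKM came to 41.6% and 41.3% with EED-cKO, against 34.7% and 28.2% in the wt libraries.

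Fgf3, a ligand with a known part in inner ear induction, was measured at 5.3 RPKM in each EED-cKO library, with 1.7 and 2.0 in wt (log2 1.15 ± 0.092 SE, limma adjusted p = 1.8e-04). The groups did not overlap, with a ratio of means of 2.86. Its neighbour Fgf4, a ligand of the early embryo that lies 2.93 kb downstream on the same strand in the GENCODE annotation, was listed at 0 in both groups. The stretch upstream of each RefSeq start is printed to show how the neighbours differ in CG dinucleotides, since PRC2 is known to bind CG-rich promoters. The sequences are from RefSeq (GRCm38.p6, plus strand, 5′ to 3′), with every CG in capitals. They run from 250 to 31 bases before the RefSeq start, which for both genes lies downstream of the GENCODE start. Both stretches therefore lie inside the GENCODE span of their gene, and the 2.93 kb gap is that between the GENCODE spans. Fgf3 lies at chr7:144838362-144838581 and holds 4 CG in this stretch, and Fgf4 lies at chr7:144861136-144861355 and holds 20.
Fgf3: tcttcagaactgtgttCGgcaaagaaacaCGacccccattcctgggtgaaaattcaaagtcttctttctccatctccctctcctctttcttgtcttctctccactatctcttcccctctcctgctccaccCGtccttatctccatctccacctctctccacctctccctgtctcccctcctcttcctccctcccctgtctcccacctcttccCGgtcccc
Fgf4: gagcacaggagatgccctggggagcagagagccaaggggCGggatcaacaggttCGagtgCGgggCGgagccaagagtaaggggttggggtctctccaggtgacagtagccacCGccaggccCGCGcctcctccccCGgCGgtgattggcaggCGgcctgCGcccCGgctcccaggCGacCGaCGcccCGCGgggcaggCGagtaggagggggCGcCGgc
Fgf3 had fewer CG in this stretch than Fgf4, and whether this bears on their expression was not tested. Counted over the whole 300-base window from 250 bases before to 50 after the start, Fgf3 had 14 CG and Fgf4 had 28. Of all promoters, 63.7% had fewer CG than Fgf3 and 85.8% fewer than Fgf4.

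Fgf8, the main patterning ligand at the front of the forebrain, was low at E15.5. It was at 1.6 and 1.1 RPKM in EED-cKO and at 0.6 in both wt libraries (log2 0.55 ± 0.11 SE, limma adjusted p = 0.00633). The groups did not overlap, but the call was lost after quantile normalization (log2 0.23, limma adjusted p = 0.198) and with only the 4 E15.5 libraries in the fit (limma adjusted p = 0.0503). Fgf17, a close relative of Fgf8 with a role in frontal cortex, was at 2.6 and 2.0 RPKM against 1.1 and 1.4 (log2 0.55 ± 0.187 SE, limma adjusted p = 0.0469). Its groups did not overlap either, yet 6 of 8 fits with a library left out lost the call. These were the fits without either E13.5 spinal cord library, either wt E15.5 library or either EED-cKO library, and their limma adjusted p reached 0.228. Fgf18, the third member of the Fgf8 subfamily, was at 5.0 and 4.5 RPKM against 3.2 and 4.2 and did not pass the test (log2 0.30, 95% interval -0.14 to 0.73, limma adjusted p = 0.224).

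Fgf9, a ligand made by neurons and glia, was at 7.5 and 6.5 RPKM in EED-cKO and at 4.9 and 4.3 in wt, without overlap (log2 0.51 ± 0.101 SE, limma adjusted p = 0.00577). The call was lost after quantile normalization (log2 0.19, limma adjusted p = 0.182) and with only the 4 E15.5 libraries in the fit (limma adjusted p = 0.0593). Fgf10, a ligand of the b splice form of Fgfr2, was at 1.8 and 3.2 RPKM against 2.0 and 1.1, and these groups overlapped (log2 0.45, 95% interval -0.10 to 1.0, limma adjusted p = 0.151).

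The 10 untested ligands were Fgf2, Fgf4, Fgf5, Fgf6, Fgf7, Fgf16, Fgf20, Fgf21, Fgf22 and Fgf23, none above 1.2 RPKM. Between the E15.5 groups, 3 of them did not overlap and were higher in EED-cKO, and 7 overlapped. Of all 11303 untested names above 0 in a library, 18.9% were higher and 5.1% lower without overlap. Fgf2, a ligand that promotes division of neural progenitors, was at 0.9 and 1.2 RPKM in EED-cKO and at 0.6 and 0.2 in wt. Fgf7, a mesenchymal ligand that acts on epithelia, had 0.9 RPKM in each EED-cKO library and 0.2 and 0.3 in wt. Fgf23, an endocrine ligand that controls phosphate, was at 0.6 and 0.4 against 0.2 and 0.3. Values in this range are a few multiples of the 0.1 RPKM to which the table is rounded.

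**Figure D2:**
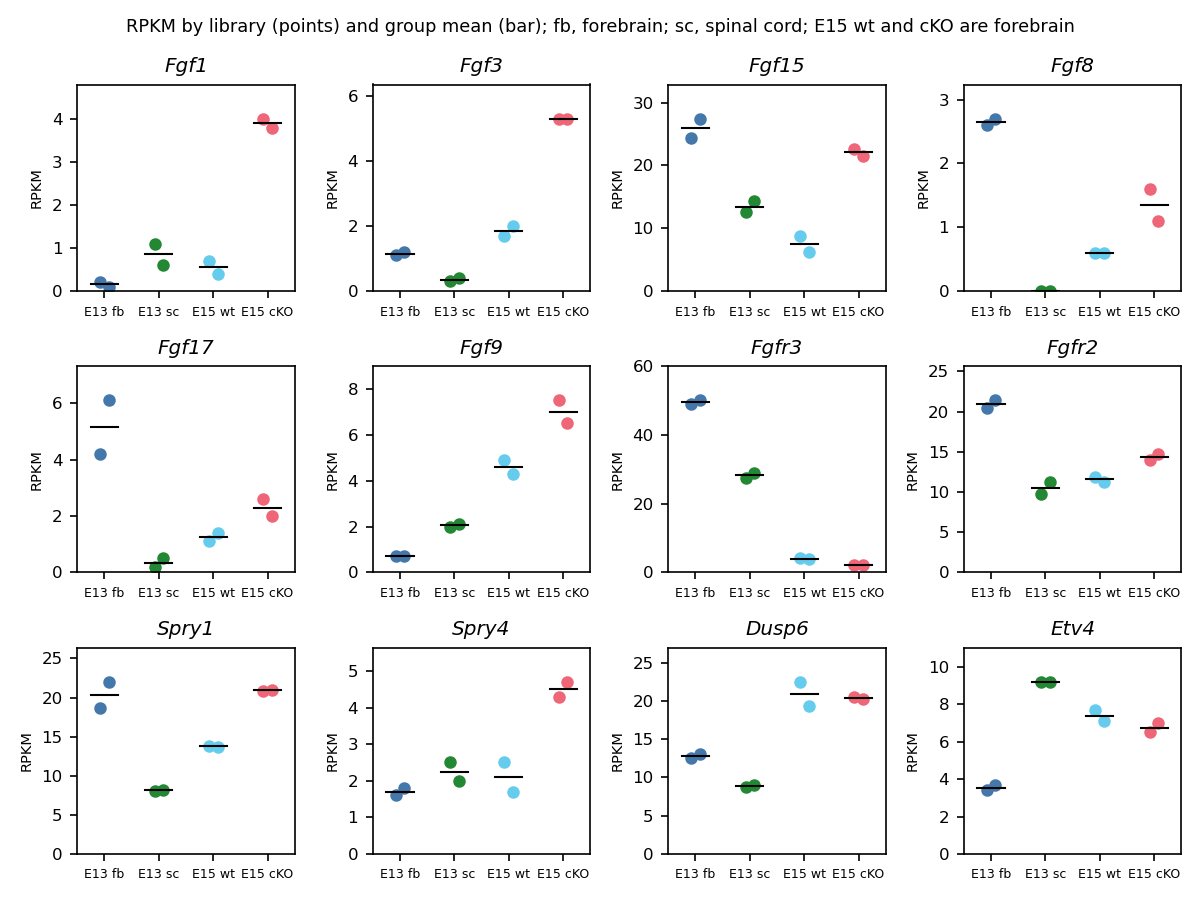
RPKM of 12 members in each library (points) with the group mean (bar), for E13.5 forebrain (E13 fb), E13.5 spinal cord (E13 sc), wt E15.5 forebrain (E15 wt) and EED-cKO E15.5 forebrain (E15 cKO). Within each age, Fgf15, Fgf3 and Spry1 are higher in E13 fb than in E13 sc and higher in E15 cKO than in E15 wt, while Dusp6 overlaps between E15 wt and E15 cKO.

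The intracellular homologous factors share the FGF fold but are not secreted and do not act as receptor ligands; they bind voltage-gated sodium channels of neurons. Fgf12 was the only one of the 4 called in EED-cKO. It was at 45.2 and 52.2 RPKM against 32.8 and 29.9 in wt, without overlap (log2 0.62 ± 0.11 SE, limma adjusted p = 0.00384). Fgf13, an X-linked gene, had 88.6 RPKM in each EED-cKO library and 107.1 and 90.1 in wt (log2 -0.15, 95% interval -0.44 to 0.14). Fgf11 was at 9.2 and 9.6 RPKM against 11.2 and 10.9, and Fgf14 at 17.6 and 19.4 against 14.0 and 12.4. The groups of Fgf11, Fgf13 and Fgf14 did not overlap, but none passed the test (limma adjusted p = 0.385, 0.362 and 0.313).

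Among the receptors, Fgfr3 fell and Fgfr1 did not pass the test. Fgfr3, the receptor mutated in achondroplasia and expressed in ventricular zone progenitors, had 2.2 RPKM in each EED-cKO library and 4.1 and 4.0 in wt (log2 -0.66 ± 0.0687 SE, limma adjusted p = 4.5e-04). The mean was thus 0.543 of the wt mean, and the log2 change stayed between -0.67 and -0.64 with each library left out. Fgfr1, the most abundant receptor at E15.5 with between 76.7% and 78.2% of the summed receptor RPKM, was at 62.7 and 61.3 RPKM against 57.7 and 54.1 without overlap but also without a call (log2 0.15, 95% interval -0.21 to 0.50, limma adjusted p = 0.455).

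Fgfr2, the receptor of Fgf7 and Fgf10 in its b form and of many ligands in its c form, was at 14.0 and 14.7 RPKM against 11.9 and 11.3 (log2 0.28 ± 0.0829 SE, limma adjusted p = 0.0271). The call was lost if wt E15.5 replicate 2 was left out (limma adjusted p = 0.0828) and without EED-cKO replicate 1 (0.0744) or 2 (0.135). After median ratio scaling the log2 change of Fgfr2 was 0.16 (limma adjusted p = 0.156). Fgfr4, low in this tissue, was at 1.3 and 1.6 RPKM against 1.1 in each wt library and was not called (log2 0.22, limma adjusted p = 0.109).

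The feedback genes did not move as a group. Spry1 and Spry4 rose, Spry2 fell, and Spred1, Spred2, Dusp6, Etv4 and Etv5 did not pass the test. Spry1, an inhibitor of receptor tyrosine kinase signalling to Ras, was at 20.9 and 21 RPKM in EED-cKO and at 13.8 and 13.7 in wt (log2 0.57 ± 0.0861 SE, limma adjusted p = 0.00187). Spry4, another inhibitor of the same family, was at 4.3 and 4.7 RPKM against 2.5 and 1.7 (log2 0.84 ± 0.145 SE, limma adjusted p = 0.00339). Neither gene's groups overlapped, and both kept their call in every alternative fit. Spry2 was at 20.2 and 18.9 RPKM against 22.8 and 25.3 (log2 -0.28 ± 0.0785 SE, limma adjusted p = 0.0224), again without overlap. Its call was lost if wt E15.5 replicate 2 was left out (limma adjusted p = 0.0589), without EED-cKO replicate 1 (0.0535) or 2 (0.124), and with only the 4 E15.5 libraries (0.0882).

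Dusp6, the ERK phosphatase, was at 20.5 and 20.3 RPKM in EED-cKO and at 22.5 and 19.4 in wt, and the groups overlapped (log2 -0.03, 95% interval -0.23 to 0.16, limma adjusted p = 0.778). Etv4 was at 6.5 and 7.0 RPKM against 7.7 and 7.1 (log2 -0.12, 95% interval -0.32 to 0.09). After quantile normalization Etv4 was called lower (log2 -0.42, limma adjusted p = 0.00464). Etv5 was at 15.1 and 17.9 RPKM against 19.3 and 16.8, with overlap (log2 -0.12, 95% interval -0.44 to 0.19). Changes of Dusp6 or Etv5 smaller than these bounds cannot be told from none. Spred1 was at 33.7 and 34.9 RPKM against 32.6 and 28.5, and Spred2 at 23.6 and 25.6 against 26.0 and 20.5. Neither was called (limma adjusted p = 0.13 and 0.553), and the Spred2 groups overlapped.

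The promoters of Spry1, which rose, and of Dusp6, which was not called, are printed in the same stretch and with the same capitals to set their CG content side by side. Spry1 lies at chr3:37639697-37639916 and Dusp6 at chr10:99262981-99263200, both on the plus strand of GRCm38.p6, with 17 and 15 CG.
Spry1: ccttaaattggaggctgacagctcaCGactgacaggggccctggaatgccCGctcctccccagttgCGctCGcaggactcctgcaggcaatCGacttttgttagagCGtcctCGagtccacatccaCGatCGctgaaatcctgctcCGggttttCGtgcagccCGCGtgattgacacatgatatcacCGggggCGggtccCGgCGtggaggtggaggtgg
Dusp6: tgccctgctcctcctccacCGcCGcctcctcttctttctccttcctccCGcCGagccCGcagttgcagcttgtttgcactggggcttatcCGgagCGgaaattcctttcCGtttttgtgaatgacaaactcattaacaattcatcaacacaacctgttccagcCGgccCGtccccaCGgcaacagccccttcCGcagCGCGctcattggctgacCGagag
The printed stretches hold similar numbers of CG, and the genes differed in their call. Over the whole 300-base window the numbers were less alike, with 29 CG for Spry1 and 19 for Dusp6. Of all promoters, 87.1% had fewer CG than Spry1 and 71.9% fewer than Dusp6. A link between CG number and change was not tested. Of the 34 members, 25 had an entry among the 32851 RefSeq promoters considered, with 33 entries in all. Of these, 28 held more CG over 300 bases than the median of all promoters, which was 7, and the member median was 19 (range 3 to 47). The ETS-type motif CCGGAAG, searched on both strands, was in 8.86% of all promoters and in 0 of the 33 member entries, which says only that these letters are not in these windows.

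**Figure D3:**
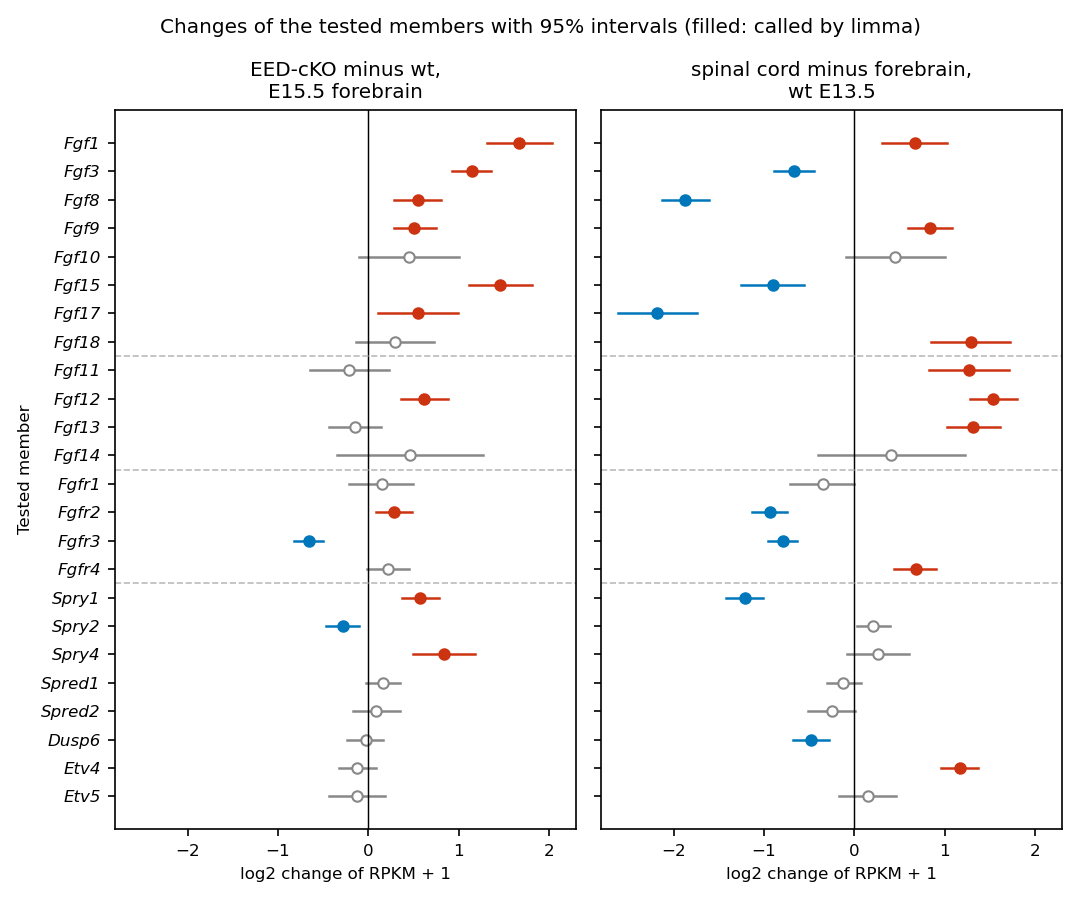
Log2 change of RPKM + 1 with 95% interval for the 24 tested members, for EED-cKO minus wt E15.5 forebrain (left) and spinal cord minus forebrain in wt E13.5 (right). Filled points are called by limma (red higher, blue lower), and dashed lines part ligands, homologous factors, receptors and feedback genes. The left-hand point of Fgf1 is filled although Fgf1 entered the test only through the EED-cKO libraries, where it was high.

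The comparison of wt spinal cord with wt forebrain at E13.5 asks how the pathway is spread along the axis of the normal nervous system. Fgf8 and Fgf17 were higher in forebrain, and Fgf18 and 3 of the 4 homologous factors were higher in spinal cord. Of the 24 tested members, 8 were higher and 8 lower in spinal cord. Among all tested genes 21.8% were called higher, 23.9% lower and 45.7% in either direction, against 66.7% of the members. The median log2 change was 0.18 over the members and 0.00 over all genes. Of these 16 calls, 15 held in every alternative fit.

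Fgf8 was at 2.6 and 2.7 RPKM in forebrain and was listed at 0 in both spinal cord libraries, so no fold is given (log2 -1.87 ± 0.11 SE, limma adjusted p = 2.4e-05). Fgf17 was at 4.2 and 6.1 RPKM in forebrain and at 0.2 and 0.5 in spinal cord, where the mean was 0.068 of the forebrain mean (log2 -2.18 ± 0.187 SE, limma adjusted p = 1.3e-04). Neither pair of groups overlapped. Lack of overlap was common here too, as 6298 of all 17022 tested genes were higher in spinal cord without overlap and 6692 lower. Fgf18, of the same subfamily, went the other way, with 6.3 and 4.1 RPKM in spinal cord and 1.4 and 1.6 in forebrain (log2 1.29 ± 0.184 SE, limma adjusted p = 0.00125). Its groups did not overlap, and the ratio of means was 3.47.

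Fgf15 was at 24.4 and 27.4 RPKM in forebrain and at 12.5 and 14.3 in spinal cord (log2 -0.90 ± 0.145 SE, limma adjusted p = 0.00223). Fgf3 was at 1.1 and 1.2 RPKM in forebrain and at 0.3 and 0.4 in spinal cord (log2 -0.67 ± 0.092 SE, limma adjusted p = 0.00104). For both genes, each forebrain library lay above each spinal cord library. Fgf9 was higher in spinal cord, at 2.0 and 2.1 RPKM against 0.7 in both forebrain libraries (log2 0.84 ± 0.101 SE, limma adjusted p = 5.7e-04). Fgf1, at 1.1 and 0.6 RPKM in spinal cord against 0.2 and 0.1, was also called higher (log2 0.67 ± 0.152 SE, limma adjusted p = 0.00981). The groups did not overlap for either gene, but the Fgf1 call was lost without forebrain replicate 2 (limma adjusted p = 0.0696), without spinal cord replicate 1 (0.054) and with only the 4 E13.5 libraries (0.056). Fgf10 was at 0.8 and 0.5 RPKM in spinal cord against 0.2 in both forebrain libraries and was not called (limma adjusted p = 0.152, and 0.0274 with a pseudocount of 0.1).

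Among the 10 untested ligands, Fgf2 and Fgf22 were higher in spinal cord and Fgf7, Fgf16 and Fgf20 higher in forebrain without overlap, all at 0.7 RPKM or less. The other 5 overlapped. Of all untested names above 0 in a library, 10.4% were higher and 6.49% lower in spinal cord without overlap.

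Of the 4 homologous factors, 3 were higher in spinal cord. Fgf12 was at 7.9 and 8.4 RPKM against 2.4 and 1.9 in forebrain (log2 1.54 ± 0.11 SE, limma adjusted p = 5.5e-05). Fgf13 was at 68.0 and 53.9 against 24.5 and 22.9 (log2 1.32 ± 0.123 SE, limma adjusted p = 1.8e-04), and Fgf11 was at 20.8 and 13.2 against 6.8 and 5.8 (log2 1.27 ± 0.186 SE, limma adjusted p = 0.0014). No library of one tissue reached into the range of the other for these 3 genes. Fgf14 was at 4.3 and 3.0 RPKM against 1.3 and 4.2, with overlap, and its change rested on a single forebrain library. It was 0.41 with all libraries (limma adjusted p = 0.369), -0.18 without forebrain replicate 1 and 1.0 without forebrain replicate 2 (limma adjusted p = 0.0132).

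Receptors were lower in spinal cord in the case of Fgfr2 and Fgfr3. Fgfr3 was at 27.4 and 29.1 RPKM against 49.0 and 50.1 in forebrain (log2 -0.79 ± 0.0687 SE, limma adjusted p = 1.3e-04). Fgfr2 was at 9.8 and 11.2 RPKM against 20.4 and 21.4 (log2 -0.93 ± 0.0829 SE, limma adjusted p = 1.5e-04). Both were without overlap. Fgfr1 was at 33.7 and 40.7 RPKM against 40.6 and 55.8, the groups overlapped, and it was not called (log2 -0.35, 95% interval -0.71 to 0.00, limma adjusted p = 0.0949). Without forebrain replicate 1 it was called lower (log2 -0.58, limma adjusted p = 0.016). Fgfr4, at 0.9 and 1.1 RPKM against 0.3 and 0.2, was higher in spinal cord (log2 0.68 ± 0.0989 SE, limma adjusted p = 0.00139).

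Feedback genes were again split. Spry1 was at 8.1 and 8.2 RPKM in spinal cord and at 18.6 and 22.0 in forebrain (log2 -1.21 ± 0.0861 SE, limma adjusted p = 5.4e-05), and Dusp6 at 8.8 and 9.0 against 12.5 and 13.1 (log2 -0.48 ± 0.0831 SE, limma adjusted p = 0.00313). Etv4 was higher, at 9.2 RPKM in both spinal cord libraries against 3.4 and 3.7 in forebrain (log2 1.17 ± 0.0853 SE, limma adjusted p = 6.1e-05). The groups of these 3 genes did not overlap. Spry2 was at 10.5 and 9.9 RPKM against 8.7 and 8.6, and Spry4 at 2.5 and 2.0 against 1.6 and 1.8 (limma adjusted p = 0.061 and 0.181). Spry2 was called higher with only the 4 E13.5 libraries (limma adjusted p = 0.0398), or if replicate 1 (0.0252) or 2 (0.0255) of wt E15.5 forebrain was left out. Etv5, at 8.8 and 7.1 RPKM against 6.6 and 7.5, overlapped and was not called (limma adjusted p = 0.405). Spred1 was at 13.8 and 13.7 against 14.5 and 15.5 and Spred2 at 12 and 11.7 against 14.4 and 14.2 (limma adjusted p = 0.273 and 0.102). Spred2 was called lower with only the 4 E13.5 libraries (limma adjusted p = 0.0135), or if replicate 1 (0.0129) or 2 (0.0127) of wt E15.5 forebrain was left out.

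The comparisons share no library, although they share the estimate of spread in the fit. Set side by side, 10 of the 24 tested members (41.7%) were called in both, against 25.8% of all tested genes. Of these, Fgf3, Fgf8, Fgf15, Fgf17, Fgfr2 and Spry1 were higher in EED-cKO and lower in spinal cord, which is 25% of the tested members, against 4.24% of all tested genes. These shares are a description and were not tested. The EED-cKO calls of Fgf8, Fgf17 and Fgfr2 were lost in some alternative fits, as given above. Fgf3 and Fgf15 lie near each other on chromosome 7. Fgf1, Fgf9 and Fgf12 were higher in both, and Fgfr3 was lower in both. Fgf1 is counted among the 10 although it entered the test only through the EED-cKO libraries, where it was high. No member was lower in EED-cKO and higher in spinal cord. Spry2 and Spry4 were called in EED-cKO alone, 6 members in spinal cord alone and 6 in neither, which does not show that their changes differ between the comparisons.

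Fgf3, Fgf4 and Fgf15 lie in a row on chromosome 7 (GRCm38, annotation GENCODE M21, plus strand), Fgf3 at 144838083 to 144844436, Fgf4 at 144847367 to 144865243 and Fgf15 at 144896531 to 144900953. Beside them lie Ano1, a chloride channel gene, on one side and Oraov1 and Ccnd1, the gene of cyclin D1, on the other. In EED-cKO, Ano1 rose from 3.2 and 2.8 to 10.2 and 10.4 RPKM (log2 1.5 ± 0.0976 SE, limma adjusted p = 8.5e-05) and Ccnd1 from 30.7 and 28.6 to 124.7 and 127.9 (log2 2.06 ± 0.0595 SE, limma adjusted p = 3.9e-06). Fgf3 and Fgf15 rose as given above. In spinal cord against forebrain, Ano1 (log2 -1.55 ± 0.0976 SE) and Ccnd1 (log2 -1.47 ± 0.0595 SE) were lower, as were Fgf3 and Fgf15 (limma adjusted p = 3.3e-05 for Ano1 and 6.0e-06 for Ccnd1). These 4 genes, grouped after their values were seen, were each higher in EED-cKO and lower in spinal cord, as were 4.24% of all tested genes.

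Not every gene of the stretch showed this pattern. Oraov1, which overlaps Ccnd1 on the other strand, was at 20 and 21.8 RPKM in EED-cKO and at 23.2 and 24.5 in wt and was not called (log2 -0.18, limma adjusted p = 0.732). Fadd, an adaptor of death receptors beyond Ano1, was not called in EED-cKO (log2 0.04, limma adjusted p = 0.761), with a change that turned to -0.17 after quantile normalization and to -0.08 after median ratio scaling. It was lower in spinal cord (log2 -0.73 ± 0.0935 SE, limma adjusted p = 7.8e-04). Ppfia1, the next gene out, was called in neither (log2 -0.01 and -0.25, limma adjusted p = 0.966 and 0.055). In spinal cord Ppfia1 was called lower after median ratio scaling (limma adjusted p = 0.0373) and quantile normalization (0.038), with only the 4 E13.5 libraries (0.0141), and if replicate 1 (0.00464) or 2 (0.00456) of wt E15.5 forebrain was left out. The stretch and its other genes were chosen after their values were seen.

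**Figure D4:**
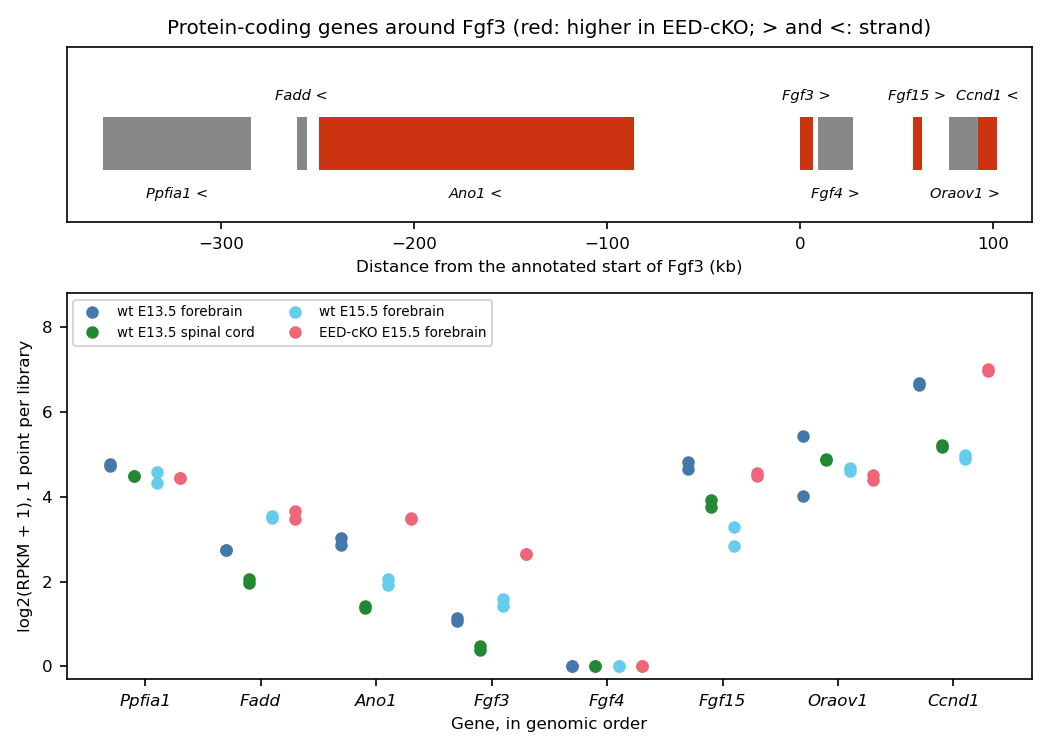
Top, annotated protein-coding genes around Fgf3 by distance in kb from its annotated start (red, higher in EED-cKO; grey, not called or, for Fgf4, not tested). Bottom, log2(RPKM + 1) of the same genes with 1 point per library; Ano1, Fgf3, Fgf15 and Ccnd1 are higher in EED-cKO than in wt E15.5 forebrain and lower in E13.5 spinal cord than in E13.5 forebrain.

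Other genes of the pathway were followed through 6 lists, and up to 4 called genes of each with the largest change in either comparison are named. Among all tested genes 30.2% were called higher and 16.7% lower in EED-cKO, and 21.8% higher and 23.9% lower in spinal cord. Of 9 tested co-receptors and binding proteins, 5 rose and 2 fell in EED-cKO, and 3 were higher and 2 lower in spinal cord. That is 77.8% and 55.6% called, against 46.9% and 45.7% of all tested genes. The shares of these lists were not tested against those of all genes. Fgfrl1, a receptor-like protein without a kinase, rose in EED-cKO (log2 0.76 ± 0.1 SE, limma adjusted p = 0.00113) and was lower in spinal cord (-1.06 ± 0.1, limma adjusted p = 1.9e-04). Flrt3, a membrane protein that binds FGF receptors, was lower in spinal cord (log2 -1.04 ± 0.0947 SE, limma adjusted p = 1.7e-04). Fgfbp3, a carrier that releases FGFs from the matrix, was higher there (log2 1.75 ± 0.113 SE, limma adjusted p = 3.6e-05), as was the cell adhesion gene Ncam1 (log2 1.18 ± 0.184 SE, limma adjusted p = 0.00189). In EED-cKO Fgfbp3 was called lower (log2 -0.42 ± 0.113 SE, limma adjusted p = 0.0199) and Ncam1 higher (log2 0.71 ± 0.184 SE, limma adjusted p = 0.0183). Both EED-cKO calls were lost with only the 4 E15.5 libraries in the fit.

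Among genes that make or carry heparan sulphate, the sugar chain needed for ligand binding, 75% of the calls for synthesis and editing genes and 77.8% of those for core proteins were higher in EED-cKO, against 64.5% of the calls over all genes. Of 12 synthesis and editing genes 6 rose and 2 fell (4 higher and 3 lower in spinal cord), and of 11 core proteins 7 rose and 2 fell (4 and 4). Sulf1 (log2 1.21 ± 0.115 SE, limma adjusted p = 3.2e-04) and Sulf2 (log2 1.41 ± 0.0942 SE, limma adjusted p = 9.0e-05), which remove sulphate groups from the chain, rose, while the sulphotransferase gene Hs3st1 fell (log2 -0.98 ± 0.0836 SE, limma adjusted p = 2.2e-04). Hs6st3, another sulphotransferase gene, was higher in spinal cord (log2 1.19 ± 0.195 SE, limma adjusted p = 0.0024). Among core proteins, Sdc4 rose from a mean of 2.95 to 12.8 RPKM (log2 1.80 ± 0.128 SE, limma adjusted p = 1.1e-04) and Gpc3 from 35.7 to 97.3 (log2 1.43 ± 0.0765 SE, limma adjusted p = 4.5e-05). In spinal cord Gpc4 (log2 -1.93 ± 0.14 SE, limma adjusted p = 5.9e-05) and Sdc1 (log2 -1.41 ± 0.0988 SE, limma adjusted p = 5.2e-05) were lower.

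In the relay from receptor to MAP kinase 33.3% of the calls in EED-cKO were higher, against 64.5% of the calls over all genes. Of 18 genes 3 rose and 6 fell in EED-cKO, with a list median of 0.01, and 4 were higher and 3 lower in spinal cord. That is 50% and 38.9% called, against 46.9% and 45.7% of all tested genes. The adaptor gene Shc1 rose (log2 0.92 ± 0.128 SE, limma adjusted p = 0.0014), as did Frs3, a docking protein of FGF receptors (log2 0.42 ± 0.0748 SE, limma adjusted p = 0.00372). Shc1 (log2 0.42 ± 0.128 SE, limma adjusted p = 0.0327) and Frs3 (log2 0.86 ± 0.0748 SE, limma adjusted p = 1.3e-04) were also higher in spinal cord. The Shc1 call there was lost with only the 4 E13.5 libraries in the fit. Of 15 other feedback and target genes, 9 rose and 2 fell in EED-cKO, and 6 were higher and 3 lower in spinal cord. For this list 73.3% and 60% were called, against the same shares of all tested genes. Fos, an immediate early gene, rose from a mean of 0.65 to 1.95 RPKM (log2 0.84 ± 0.0791 SE, limma adjusted p = 3.1e-04) and Il17rd, an inhibitor of FGF signalling also known as Sef, from 2.3 to 4.7 (log2 0.80 ± 0.137 SE, limma adjusted p = 0.00327). In spinal cord, Errfi1 (log2 1.80 ± 0.0858 SE, limma adjusted p = 1.1e-05) and Phlda1 (log2 1.59 ± 0.101 SE, limma adjusted p = 3.3e-05) were higher. Errfi1 (log2 0.56 ± 0.0858 SE, limma adjusted p = 0.00198) and Phlda1 (log2 0.61 ± 0.101 SE, limma adjusted p = 0.0028) were also higher in EED-cKO.

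Of 11 transcription factor genes that act with or under Fgf8 in forebrain patterning, 5 fell and 3 rose in EED-cKO. In spinal cord 10 were lower and 1 higher. That is 72.7% and 100% called, against 46.9% and 45.7% of all tested genes. Emx1 fell in EED-cKO from a mean of 43.4 to 8.3 RPKM (log2 -2.24 ± 0.157 SE, limma adjusted p = 1.1e-04) and Lhx2 from 143 to 54.3 (log2 -1.38 ± 0.115 SE, limma adjusted p = 2.0e-04). Emx2, at a mean of 15.1 against 13.8 RPKM, was not called (limma adjusted p = 0.39), and its change turned from 0.13 to -0.05 after quantile normalization. In spinal cord Emx1 (log2 -5.81), Emx2 (log2 -5.21) and Lhx2 (log2 -4.73) were lower than in forebrain (limma adjusted p = 9.4e-07, 3.3e-07 and 5.7e-07).

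Markers of several other cell types were also higher in EED-cKO forebrain, where 30.2% of all tested genes were called higher and 16.7% lower. All 8 choroid plexus markers rose, with a summed level of 5836 and 4570 RPKM in EED-cKO against 2137 and 2291 in wt. All 10 markers of meninges and mesenchyme rose (759.8 and 929.5 RPKM against 256.1 and 195.5), as did all 7 of endothelium (259.3 and 264.5 against 183.3 and 177). So did 5 of 6 tested markers of pericytes (114.1 and 118.5 against 83.5 and 72). Of microglia and macrophages 5 of 6 tested markers rose (123 and 131.6 over the 7 listed, against 68 and 71.4). All 4 tested epithelial markers rose (40.1 and 55.1 RPKM over the 7 listed, against 10 and 10.2), with Krt5 at 0 in both wt libraries. No list had a marker at 0 in all 8 libraries, which does not show that each cell type was present in each group. Whether a cell type was absent from a group was not tested. Of 3 tested muscle markers 1 rose, and the summed level of the 6 listed was 124.6 RPKM in EED-cKO replicate 2 against 7.7 in replicate 1. Of 6 erythroid markers 1 fell, of 10 markers of astrocytes and oligodendrocyte precursors 6 rose and 2 fell, and of 7 neural markers 1 rose and 2 fell. The erythroid marker that fell, Hbb-bt, was at 5.9 and 8.1 RPKM in EED-cKO and at 395.4 and 547.4 in wt. Hbb-bs was at 5109.1 and 5902.3 RPKM against 3159.1 and 4340.1 and was not called. The cause of this difference was not tested. The 6 forebrain markers summed to 155.3 and 135.1 RPKM in EED-cKO against 489.5 and 491 in wt, and the 6 trunk Hox genes to 46.7 and 41.9 against 0 in both. In bulk tissue, a gene's level cannot be split into the number of cells that express it and the RNA in each, and the part of these cell types in the changes of Fgf1, Fgf7, Fgf15 or any other member was not tested.

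In spinal cord against forebrain, 6 of 8 choroid plexus markers were lower (6.4 and 5.4 RPKM against 233.2 and 238.6), 5 of 6 erythroid and all 4 tested epithelial markers were lower, and 5 of 6 tested markers of microglia and macrophages were higher. Over all tested genes 21.8% were called higher and 23.9% lower in spinal cord. Meningeal and mesenchymal markers were split, with 4 higher and 2 lower of 10. Markers of endothelium and of pericytes were each higher in 2 and lower in none, and of the 10 markers of astrocytes and oligodendrocyte precursors 5 were higher and 1 lower. Their part in the regional differences of the members was not tested either.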

How the data were processed

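Total RNA from dissected forebrain or spinal cord was extracted with an RNeasy kit and made into unstranded libraries for single-end sequencing, per the labels' protocols. The authors deposited RPKM values in multiples of 0.1, with 1 column per library and no counts. The builds mm9 and GRCm38 are named without a role, per the submitters' processing notes. Which aligner and counter were used is not given in the sources used here.

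In the 4 E15.5 columns the values were matched to names sorted alphabetically, ignoring case and hyphens. The correlation across genes of E13.5 with E15.5 wt forebrain was 0.948 in this order and 0.760 in the deposited one. Repeated names (16 rows) were reduced to the row of highest mean. Genes at 1 RPKM or more in at least 2 libraries were tested two-sided on log2(RPKM + 1) with the trended eBayes of limma 3.58.1 (R 4.3.3). The fit held all 8 libraries and a mean for each group, which left 4 residual degrees of freedom, with Benjamini-Hochberg adjustment over 17022 genes. With 2 libraries in each group, an exact permutation test of a single gene cannot go below p = 0.333. The fit was tested on simulated data.

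All 34 members were named whatever their test, and from each other pathway list up to 4 called genes with the largest change in either comparison. Some genes that this rule names are not reported here. Members and lists were chosen with earlier results of these data known. Of the listed genes, Spry3 had no matching name. Positions are from GENCODE M21 (GRCm38) and promoters from RefSeq (GRCm38.p6). The alternatives were names as deposited, a pseudocount of 0.1, no filter, median ratio and quantile scaling, only the 4 libraries compared, a replicate block, and each library left out. A crossed replicate block and a count without Fgf1 were added after seeing the data. Summaries used pandas 2.3.3 and numpy 2.4.6 under Python 3.11.15, and plots matplotlib 3.10.9. Knockout spinal cord, which the design text mentions, is not analysed here.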

Additional observations from a re-analysis of the deposited data

How the results depend on the processing

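Of the 12 members called in EED-cKO, 9 kept their call with each library left out. Fgf3, Fgfr3, Spry1 and Spry4 kept it under every alternative. Fgf1 is counted among the 12 and the 9 but entered the test only through the EED-cKO libraries. The fits with a library left out used that same filter, so a kept call of Fgf1 gives no support to its change. Under the deposited row order the name Fgf3 carries another gene's E15.5 values, so that its call there says nothing about Fgf3. The calls of Fgf12 and Fgf15 were lost in that order alone, where their names also carry values of other genes. In that order 22 members hold another row, and the changes of Fgf12, Fgf15, Fgf17, Il17rd and Ncam1 became 0.00 and that of Fgf13 0.17. Only the 4 E15.5 libraries in the fit gave 7 members called in EED-cKO, 6 higher and 1 lower. They gave 4777 genes in all, against 7987 with all 8 libraries. With only the 4 E13.5 libraries, 8 members were higher and 9 lower in spinal cord. There 8582 genes were called in all, against 7784. Both of these fits have fewer residual degrees of freedom. Quantile normalization gave 6 members higher and 3 lower, with Fgf18 at -0.07, Fgfr4 at -0.11, Emx2 at -0.05 and Fadd at -0.17. Median ratio scaling put Spred2 at -0.04 and Fadd at -0.08. For all genes, calls split into 5149 higher and 2838 lower (64.5% higher), into 4043 and 4240 (48.8%) with median ratio scaling and into 3540 and 4314 (45.1%) with quantile normalization. The cause of these shifts was not tested.

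With a library left out, members called in EED-cKO ranged from 9 to 13, higher from 8 to 11, lower from 1 to 2, and all genes called from 4922 (without EED-cKO replicate 2) to 9606. In spinal cord these were 15 to 18 members and 5205 to 9320 genes. The change in EED-cKO ranged from -0.14 to 0.07 for Dusp6, from -0.08 to 0.25 for Spred2, from -0.13 to 0.12 for Ppfia1, from -0.03 to 0.28 for Emx2, from -0.04 to 0.37 for Gpc4 and from -0.06 to 0.14 for Fadd. Dusp6 and Ppfia1 were above 0 without wt E15.5 replicate 1, Spred2 and Emx2 below 0 without wt E15.5 replicate 2, and Fadd and Gpc4 below 0 without EED-cKO replicate 2. In spinal cord it ranged from -0.18 to 1.0 for Fgf14 and from -0.55 to 0.87 for Oraov1, whose forebrain libraries were at 42.2 and 15.1 RPKM.

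Libraries of different groups share only a replicate number. Deviations of replicate 1 from the group mean correlated across genes at 0.211 between the E13.5 tissues and at -0.124 between the E15.5 groups. With a replicate block, 10 members were higher and 2 lower in EED-cKO (4976 and 2632 of all genes), and 8 and 8 in spinal cord, and no member's call changed. With the EED-cKO numbers crossed, an alternative added after seeing the data, 10 were higher and 2 lower (5229 and 2784 of all genes).

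Depth is unknown, so low ligands such as Fgf2, Fgf7 and Fgf23 are limited by the rounding to 0.1 RPKM, and 2 libraries in each group limit every SE. The wt E15.5 libraries differed most, with a median SD of 0.117 on the log2 scale against 0.049 to 0.0578 in the other groups.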
